A study of Mus musculus with 3 samples.

Results

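Tumour conventional type 1 dendritic cells (cDC1s) of mice that lack secreted gelsolin were compared with those of wild-type mice, gene by gene and within each deposited cDC1 cluster. The members were the cells that the deposited cDC1 table assigned to the WT or the sGSN-/- library and to clusters 0 to 10. These were 2297 WT and 1683 sGSN-/- cells, together 3980 of the 5806 cDC1s in the table and of the 30209 barcodes in the deposited matrices. Cluster 11, with 19 WT and 29 sGSN-/- cells, lay outside the rule. The library of sGSN-/-Clec9a-/- mice held 1766 cells in the same clusters and is given beside the others for the key genes only.

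The study examined how cDC1 states are arranged in immunogenic tumours and used scRNAseq, which counts transcripts of single cells as unique molecular identifiers (UMIs), to define these states. All mice carried MCA205 LA-OVA fibrosarcomas, which express the model antigen ovalbumin, on both flanks, and tumours were taken on day 5 and pooled per genotype, with 5 tumours per digest. The WT pool held 25 males and 12 females, the sGSN-/- pool 15 males and 16 females, and the sGSN-/-Clec9a-/- pool 10 males and 17 females, aged 6 to 20 weeks and backcrossed to or of the strain C57BL/6J. The genotypes had been co-housed for more than 3 weeks, and cDC1s, cDC2s and pre-cDCs were sorted from each pool and mixed before sequencing. Each genotype was thus 1 library from 1 pool of mice, and genotype, pool, sex makeup, sort and library cannot be told apart. No value below has a replicate check, and no test between genotypes was made.

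As background, cDC1s take up dead cells and cross-present their antigens to CD8+ T cells. Their receptor DNGR-1, encoded by *Clec9a*, binds the actin filaments that dying cells expose and promotes cross-presentation of the cargo. Secreted gelsolin, a plasma protein that severs and caps actin filaments, competes with DNGR-1 for this ligand, so that its loss leaves more ligand for the receptor. Comparing sGSN-/- with WT cDC1s therefore asks whether freer access to the ligand is accompanied by a change of the cDC1 transcriptome.

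The targeted gene was examined first. *Gsn* (ENSMUSG00000026879, chr2:35256380-35307892, GRCm38, plus strand) was counted at 151.5 CPM (a gene's UMIs after scaling each sum of cells to an equal total) in WT and 169.2 CPM in sGSN-/- cDC1s, with exact Poisson 95% intervals of 147.3 to 155.8 and 164.0 to 174.5. These intervals, like all others below, cover counting error only. The gene was higher in 8 of 11 clusters, with a median log2 ratio of 0.19. Since UMIs are counted per gene, secreted and other gelsolin transcripts are not told apart, and *Gsn* is no check of the sGSN-/- label. *Clec9a*, intact in both groups, was at 168.5 CPM in WT and 168.2 CPM in sGSN-/- cDC1s and at 0.0933 CPM in the sGSN-/-Clec9a-/- library. Within clusters its log2 ratio lay between -0.11 and 0.48, with a median of 0.15 and 8 of 11 clusters higher, and the gene was not called by the rule given below.

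The 3980 cells carried 32632707 UMIs in the WT and 23484763 UMIs in the sGSN-/- library. The median cell held 14129 and 14246 UMIs, and the median mitochondrial share was 1.56% and 1.64%. Depth was thus nearly equal overall and differed most in cluster 6, where the median cell held 9374 UMIs in WT and 7237 in sGSN-/-. Between the WT and sGSN-/- matrices 26 barcode sequences were shared. The cDC1 label was checked on 11 markers, all of which could be compared and none of which was called higher or lower by the rule given below. That count is near the shares of 0.858% higher and 1.61% lower over all countable genes. Their summed level was 4623 CPM in WT and 4553 CPM in sGSN-/- cDC1s, and 4581 CPM in the sGSN-/-Clec9a-/- library. The most abundant, *Naaa*, was at 1342, 1252 and 1451 CPM, and none of the 11 was at 0 in WT or sGSN-/- cells.

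Between WT and sGSN-/-, the sex makeup of the pools and the transcripts went in opposite directions. Cells were typed by Y-linked UMIs without *Xist* or by *Xist* UMIs without Y-linked ones. Y-typed cells made up 19.4% of the typed WT cDC1s (exact Clopper-Pearson 95% interval 17.7 to 21.2) and 36.4% (33.9 to 38.9) of the typed sGSN-/- cDC1s. *Xist* was at 268.2 CPM in WT and 218.7 CPM in sGSN-/- cDC1s, and its log2 ratio was below 0 in 9 of 11 clusters. Males, however, made up 25 of the 37 WT mice and 15 of the 31 sGSN-/- mice, a larger share in WT. In the sGSN-/-Clec9a-/- library, from 10 males among 27 mice, 23.7% (21.6 to 25.9) of the typed cDC1s were Y-typed. The transcripts thus go against the recorded makeup of the WT and sGSN-/- libraries, and with 1 library per genotype no result could be given without these libraries.

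For each gene, UMIs were summed per cluster and library, scaled to CPM, and expressed as the log2 ratio of sGSN-/- over WT in every cluster with at least 30 UMIs over both libraries. A gene with at least 6 such clusters was countable, and 7578 genes were. Over these the median of the median ratios was -0.001 on the log2 scale and the median absolute value 0.087, and 95.3% of genes lay within the threshold of 0.32 used for calls. A gene was called consistently higher or lower when its median log2 ratio was at least 0.32 in size and at most 1 countable cluster went against it. By this rule 65 genes were consistently higher (0.858% of those countable) and 122 consistently lower (1.61%). In 21 and 44 of them, respectively, every countable cluster went the same way. Single clusters were noisier than the median over clusters, with a median absolute log2 ratio from 0.13 in cluster 0 to 0.28 in cluster 10, the smallest. The transcriptomes of the groups were therefore close, and the differences described here belong to a small number of genes.

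Which genes were called depended strongly on the setting. Scaling by the median gene called 58 of the 65 higher and 117 of the 122 lower genes again. In Y-typed cells, however, with 3678 countable genes, 0 of the 65 and 13 of the 122 were called again. In cells typed by *Xist*, with 6564 countable genes, these numbers were 10 of the 65 and 53 of the 122. Of the 65 higher genes, 29 were also called with a minimum of 10 UMIs and 5 with a minimum of 100. After each cell was thinned to 3900 UMIs, 1 of the 65 higher and 20 of the 122 lower genes were called again, and fewer genes, 4442, were countable. The counts 65 and 122 therefore describe these libraries at this depth, and for genes of the naming rule the number of alternatives that called them again, out of those in which they were countable, is given below where any of these lost the call.

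**Figure D1:**
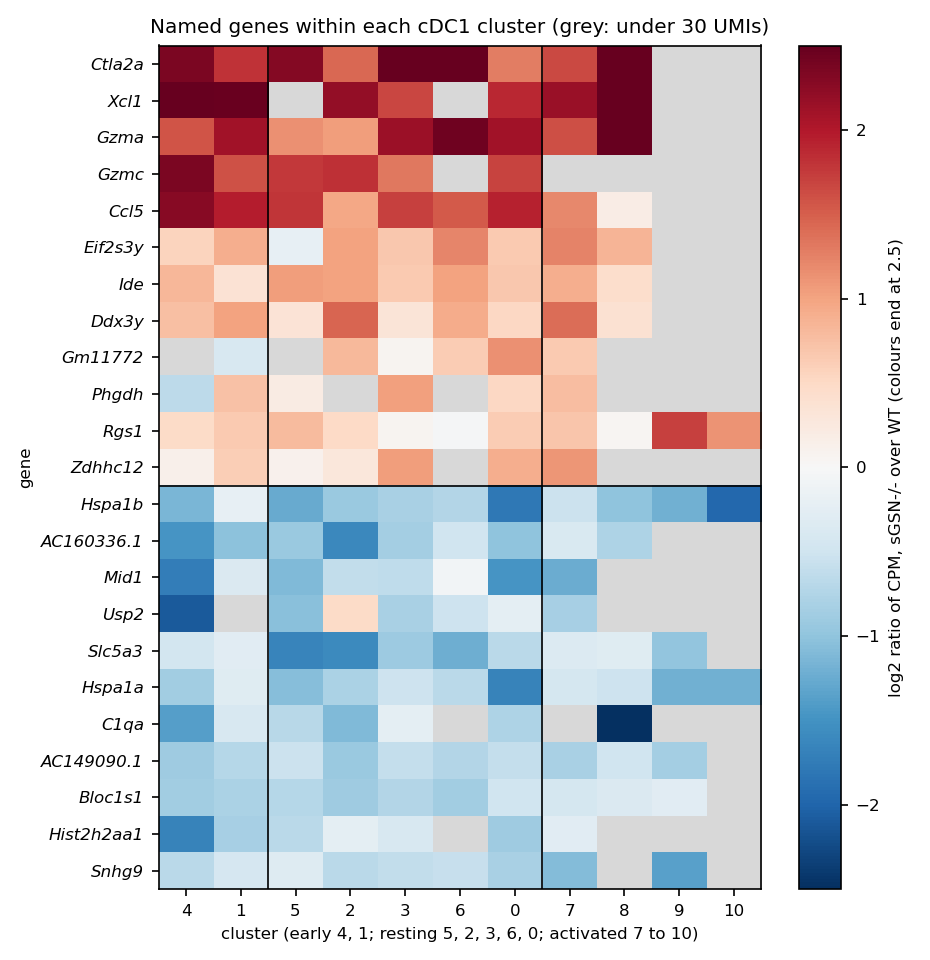
Log2 ratio of CPM, sGSN-/- over WT, in each cDC1 cluster (columns, ordered as early, resting and activated) for the 12 consistently higher genes with the largest and 11 consistently lower genes among the 12 with the smallest median ratio (rows). *Hspa1a* and *Hspa1b* are lower in all 11 clusters, whereas *Ccl5* is far higher in early and resting clusters and near 0 in cluster 8, and grey marks clusters with under 30 UMIs.

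The largest ratios belonged to transcripts of natural killer (NK) cells. *Ctla2a*, which encodes a cathepsin inhibitor, rose from 2.911 CPM in WT (2.355 to 3.559) to 12.65 CPM in sGSN-/- cDC1s (11.25 to 14.17). *Xcl1*, which encodes the ligand of the cDC1 receptor XCR1, rose from 2.94 CPM (2.38 to 3.59) to 13.5 CPM (12.01 to 15.02). The granzyme gene *Gzma* rose from 5.64 CPM (4.85 to 6.52) to 21.3 CPM (19.5 to 23.3). All of these were low levels. Another granzyme gene, *Gzmc*, was at 2.85 CPM in WT and 9.88 CPM in sGSN-/- cells. Median log2 ratios of these genes were 2.29 for *Ctla2a*, 2.19 for *Xcl1*, 2.10 for *Gzma* and 1.73 for *Gzmc* over 9, 7, 9 and 6 countable clusters. Since WT cells held few UMIs of these genes, their clusters were countable largely through the sGSN-/- library, and their shared direction is no further support. In the sGSN-/-Clec9a-/- library the levels were 4.52, 4.38, 10.4 and 2.33 CPM in the same order, nearer to WT.

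Markers of NK cells were examined as a whole list because these transcripts belong to that cell type. Of 10 NK markers, 3 were countable in the cDC1s and 1, *Gzma*, was consistently higher, against 0.858% higher and 1.61% lower among all countable genes. *Gzma*, already named above, had 184 UMIs in WT and 501 in sGSN-/- cDC1s and was countable largely through the latter. The count of 1 is therefore no result about the list. The summed level of the list was 241.5 CPM in WT and 306.1 CPM in sGSN-/- cDC1s and 239.6 CPM in the sGSN-/-Clec9a-/- library. Its most abundant gene, *Klrk1*, which the cDC1s held at 41.1% and 40.5% of its level in NK barcodes of the same library, barely differed, at 165.8 and 170.8 CPM. The defining markers were close to 0 but higher in sGSN-/- cells, none of them at 0. *Ncr1* was at 0.398 CPM in WT and 2.60 CPM in sGSN-/- cDC1s, *Klrb1c* at 0.521 and 2.001 CPM, *Nkg7* at 2.45 and 8.60 CPM, and *Gzmb* at 1.72 and 9.67 CPM. The list of 8 T cell markers had no countable gene and summed to 7.26 and 10.7 CPM.

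NK barcodes were also more frequent in the sGSN-/- library. Outside the deposited cDC1s, barcodes with at least 2 UMIs of *Ncr1* and *Klrb1c* together and none of *Xcr1* numbered 942 of 10431 in WT, or 9.03% (8.49 to 9.60). In the sGSN-/- library they numbered 1462 of 6448, or 22.7% (21.7 to 23.7), and in the sGSN-/-Clec9a-/- library 1093 of 7470, or 14.6% (13.8 to 15.5). These barcodes were present although the sort took CD11c+ MHCII+ cells and gated out cells bearing CD3e or NK1.1, the protein of *Klrb1c*. Within them the transcripts were abundant and similar between the libraries, with *Gzma* at 2833 and 3469 CPM, *Xcl1* at 1826 and 1797 CPM and *Ctla2a* at 1424 and 1544 CPM in WT and sGSN-/-. Set against that level, the cDC1s held 0.199% of it for *Gzma*, 0.203% for *Nkg7* and 0.195% for *Gzmb* in WT. In the sGSN-/- library the same shares were 0.615%, 0.652% and 1.07%. Over the 8 NK markers other than *Klrk1* and *Klrd1* the shares ran from 0.113% for *Ncr1* to 0.357% for *Il2rb* in WT and from 0.374% for *Prf1* to 1.07% for *Gzmb* in sGSN-/-. *Klrd1* was held at more, 6.87% and 9.19%, or 62.3 and 84.5 CPM.

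Single sGSN-/- cells reached higher counts than WT cells. One sGSN-/- cDC1 held 57 UMIs of *Gzma*, and the highest count of a cell was 28 for *Ctla2a* and 26 for *Xcl1*, against 4, 2 and 2 in WT, while no cell of either library held more than 2 UMIs of *Gzmc*. In the sGSN-/- library the 1% of cells with most UMIs held 25.6% of those of *Ctla2a*, 20.25% of *Xcl1*, 22.0% of *Gzma* and 14.7% of *Gzmc*, so most UMIs of that library lay in other cells. At least 1 UMI of *Ncr1*, *Klrb1c*, *Nkg7*, *Gzma*, *Gzmb* or *Prf1* was found in 320 of the 2297 WT (13.9%) and 667 of the 1683 sGSN-/- cDC1s (39.6%), a cell type that should lack most of them, at median depths of 14129 and 14246 UMIs. The part of RNA from NK cells in these differences was not tested.

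*Ccl5*, which encodes a chemokine that attracts T cells, NK cells and other leukocytes, also stood among the higher genes, with cluster 8 apart from the others. In cluster 8, where the gene is most abundant, it was at 2960 CPM in WT and 3383 CPM in sGSN-/- cells, a log2 ratio of 0.19. In the early cluster 4 it was at 10.1 and 49.1 CPM, and in the resting cluster 0 at 5.26 and 19.9 CPM, log2 ratios of 2.28 and 1.92. In the activated cluster 7 it was at 7.02 and 16.1 CPM, a log2 ratio of 1.20. The large ratios of *Ccl5* thus came from clusters in which the gene is nearly absent, and the cluster that expresses it moved little. In NK barcodes *Ccl5* was at 1847 CPM in WT and 2439 CPM in sGSN-/-. Its median log2 ratio was 1.72, and 1.42 in cells without a UMI of the 6 NK transcripts above, which need not be free of NK cell RNA. The part of that RNA in the difference was not tested. The 1% of cells with most *Ccl5* held 90.4% of its UMIs in WT and 63.8% in sGSN-/- cDC1s.

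*Rgs1* was the higher gene with the most UMIs among the 12 with the largest ratios, and was abundant in cDC1s and NK barcodes alike. It encodes a regulator of G protein signalling that dampens responses to chemokine receptors. *Rgs1* (ENSMUSG00000026358, chr1:144242296-144249242, GRCm38, minus strand) was at 389.9 CPM in WT (383.2 to 396.8) and 552.3 CPM in sGSN-/- cDC1s (542.9 to 561.9), and at 398.3 CPM in the sGSN-/-Clec9a-/- library. Its median log2 ratio was 0.63, and 10 of 11 clusters were higher. The ratio was largest in the activated cluster 9, at 171.9 and 562.4 CPM, and in cluster 10, at 166.5 and 360.9 CPM, with log2 ratios of 1.71 (1.44 to 1.98) and 1.12 (0.61 to 1.64). It was near 0 in cluster 8, the cluster with the highest level, at 1936 and 2006 CPM, in the resting cluster 3, at 548.8 and 577.4 CPM, and in cluster 6, at 411.9 and 405.1 CPM. In the early cluster 1 it rose from 312.8 to 492.6 CPM.

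The difference in *Rgs1* was not seen in the sum over barcodes outside the cDC1s or in the NK barcodes among them. Outside values, here and below, are sums over a mix of cell types. This mix differed between the libraries, with NK barcodes at 9.03% in WT and 22.7% in sGSN-/-. It can create or hide a difference outside the cDC1s, and its part was not tested. Barcodes with at least 200 genes outside the deposited table held 720.9 CPM of *Rgs1* in WT and 694.9 CPM in sGSN-/-, and the NK barcodes 666.9 and 648.2 CPM. Of 16 alternative settings, 12 called it higher again, with medians from 0.42 in Y-typed cells to 0.69 without the barcodes of highest doublet score. In cells typed by *Xist* the median was 0.44. In Y-typed cells, where 0 of the 65 higher genes were called again, *Rgs1* was not called. With the cells holding NK transcripts left out it was 0.53.

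**Figure D2:**
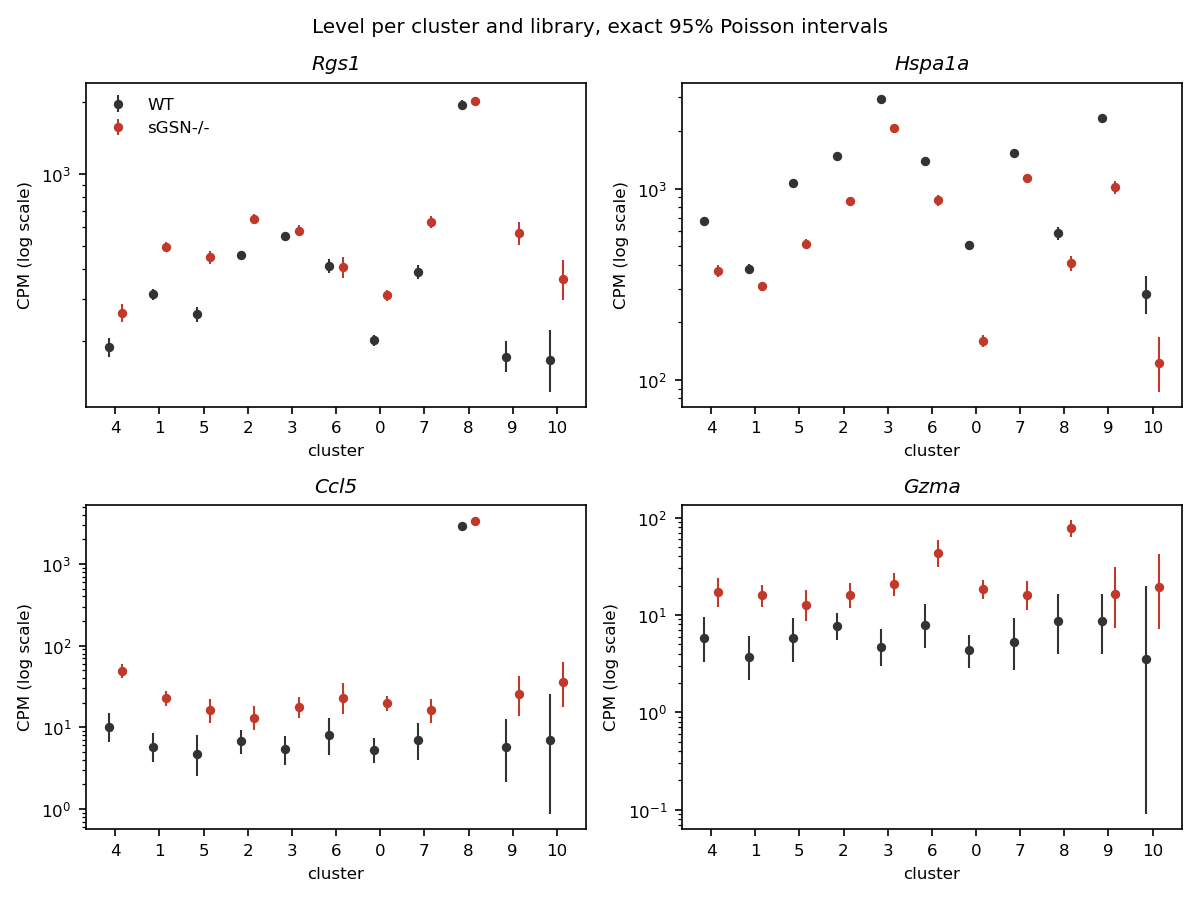
Level in CPM (log axis) of *Rgs1*, *Hspa1a*, *Ccl5* and *Gzma* in each cDC1 cluster of the WT (black) and sGSN-/- (red) library, with exact 95% Poisson intervals as bars and clusters ordered as early, resting and activated. *Rgs1* is higher in sGSN-/- cells in 10 of 11 clusters, *Hspa1a* is lower in all 11, and *Ccl5* is far above its other levels in cluster 8.

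Other higher genes were of low abundance. *Ide*, which encodes the insulin-degrading enzyme, was at 15.9 CPM in WT (14.6 to 17.4) and 26.7 CPM in sGSN-/- cDC1s (24.7 to 28.9), higher in 9 of 9 clusters with a median log2 ratio of 0.83. It was called in each of the 13 alternatives in which it could be compared. Outside the cDC1s *Ide* was at 23.8 and 47.8 CPM and in NK barcodes at 49.1 and 86.2 CPM, so its difference was also present outside the cDC1s. In the sGSN-/-Clec9a-/- library it was at 18.7 CPM in cDC1s. The Y-linked genes *Eif2s3y* and *Ddx3y* had median log2 ratios of 0.85 and 0.75, at 15.4 and 26.1 CPM and at 18.3 and 29.0 CPM in WT and sGSN-/-. They were called in 11 of 13 and 13 of 14 alternatives. In Y-typed cells their medians were -0.07 and -0.14, but these cells were chosen by UMIs of the same genes, so ratios near 0 follow largely from the choice. The other countable gene placed on chromosome Y, *Gm47283*, went the other way and was consistently lower, at 47.1 and 31.4 CPM with a median of -0.47. *Phgdh*, the first enzyme of serine synthesis, was at 6.99 and 9.71 CPM with a median of 0.63 and was called in 8 of 9 alternatives. It was at 14.1 and 28.5 CPM outside the cDC1s and, nearly equal, at 101 and 100 CPM in NK barcodes. *Zdhhc12*, a palmitoyltransferase gene that overlaps *Pkn3*, was at 7.29 and 10.6 CPM with a median of 0.62. *Gm11772*, antisense within *Bahcc1*, was at 4.57 and 5.62 CPM with a median of 0.64 and was called in 5 of 8 alternatives.

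Of 79 countable ribosomal protein genes only *Rpl35* was called, lower, which is near the 1.61% lower among all countable genes. *Rpl35* was at 2552 and 2001 CPM with a median log2 ratio of -0.35, and it was lower outside the cDC1s too, at 2917 and 2280 CPM. It was called in 14 of 16 alternatives. Several other lower genes also behaved alike inside and outside the cDC1s. *Bloc1s1*, a subunit of a complex of lysosome-related organelles that overlaps *Rdh5*, was at 40.9 and 25.8 CPM in WT and sGSN-/- cDC1s and at 37.7 and 23.6 CPM outside. *Snhg9*, a small nucleolar RNA host gene antisense to *Rps2*, was at 16.2 and 10.6 CPM inside and at 25.3 and 15.2 CPM outside. The long non-coding RNA *AC160336.1* was at 16.5 and 8.56 CPM inside and at 22.5 and 12.1 CPM outside, and *AC149090.1* at 51.6 and 30.8 CPM inside and at 87.5 and 63.4 CPM outside. Median log2 ratios within cDC1 clusters were -0.72 for *Bloc1s1*, -0.67 for *Snhg9*, -0.92 for *AC160336.1* and -0.73 for *AC149090.1*, and of these *AC160336.1* lost its call in 1 of 13 alternatives. These 4 genes were thus lower both inside and outside the cDC1s.

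Genes with short transcripts were more frequent among the calls than among the countable genes. Of the 65 higher genes 6 (9.23%) and of the 121 lower genes with a known length 7 (5.79%) had a longest transcript under 700 nt, against 1.70% of the countable genes. The length limit was set after the values had been seen, and the part of transcript length in these differences was not tested.

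Other lower genes were of low abundance. *Mid1*, a microtubule-associated ubiquitin ligase, was at 8.95 CPM in WT and 5.37 CPM in sGSN-/- cDC1s with a median log2 ratio of -0.87, called in 12 of 13 alternatives. The deubiquitinase gene *Usp2* was at 13.3 and 8.86 CPM with a median of -0.81, although cluster 2 went the other way with 0.48, and was called in 11 of 13. *Slc5a3*, a myo-inositol transporter gene that overlaps *Mrps6*, was at 18.3 and 8.985 CPM with a median of -0.79 and lower in 10 of 10 clusters. *Hist2h2aa1*, a histone gene, was at 12.7 and 8.09 CPM in cDC1s with a median of -0.68, called in 10 of 12 alternatives. In the sum outside the cDC1s it was at 26.0 and 30.4 CPM, in the other direction, but in NK barcodes at 53.3 and 48.5 CPM. The part of the cell mix in the outside values was not tested.

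The list of heat shock chaperones held more called genes than any other of the 27 lists. These proteins refold or hold damaged proteins, and many of their genes are induced by heat and proteotoxic stress. *Hspa1a* (ENSMUSG00000091971, chr17:34969190-34972156, GRCm38, minus strand, overlapping *Gm20481*) was at 1242 CPM in WT (1230 to 1255) and 693.3 CPM in sGSN-/- cDC1s (682.7 to 704.0), and at 542.8 CPM in the sGSN-/-Clec9a-/- library. *Hspa1b* (ENSMUSG00000090877, chr17:34956436-34959238, GRCm38, minus strand) was at 511.8 CPM (504.1 to 519.6) and 247.6 CPM (241.2 to 254.0), and at 200.4 CPM in the sGSN-/-Clec9a-/- library. Both genes were lower in sGSN-/- cells in 11 of 11 clusters and in all 16 alternatives, with median log2 ratios of -0.791 and -1.004. They are near-identical copies, so how their UMIs divide between them is uncertain.

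The size of the difference varied between clusters. *Hspa1a* was at 507.9 CPM in WT and 159.4 CPM in sGSN-/- cells of the resting cluster 0, a log2 ratio of -1.67. In the early cluster 1 it was at 382.1 and 308.2 CPM, a log2 ratio of -0.31. The cluster with the highest level, cluster 3, held 2949 CPM of *Hspa1a* in WT and 2075 CPM in sGSN-/- cells. Outside the cDC1s *Hspa1a* was at 669.4 and 398.1 CPM and *Hspa1b* at 276.7 and 145.0 CPM, so these genes were lower in the other barcodes as well.

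Of the 24 heat shock genes listed, 21 were countable, 7 were consistently lower, 0 higher and 14 neither, against 1.61% lower and 0.858% higher among all countable genes. The median over the list was -0.21 on the log2 scale, against -0.001 over all countable genes, and 19 of the 21 medians were below 0. The list did not move as 1 unit: *Hspa2* and *Hspa4* had medians of 0.20 and 0.06, and *Hsf1* and *Dnajb6* of -0.03 and -0.02. Besides *Hspa1a* and *Hspa1b*, the lower genes, named after their values were seen, were *Hsph1* (112.2 CPM in WT and 67.4 CPM in sGSN-/-), *Dnajb1* (223.2 and 135.7 CPM), *Dnaja1* (994.2 and 724.6 CPM), *Hspd1* (205.1 and 166.6 CPM) and *Bag3* (22.6 and 15.2 CPM). *Hspa8* was at 3456 and 3027 CPM and *Hsp90ab1* at 2323 and 2019 CPM, with median log2 ratios of -0.18 and -0.21, and neither was called. The list's median lay below 0 in each of the 11 clusters, from -0.02 in cluster 1 to -0.46 in cluster 9. Over the 16 alternatives it lay between -0.33 and -0.20. The summed level was 11515 CPM in WT and 9182 CPM in sGSN-/- cDC1s and 8572 CPM in the sGSN-/-Clec9a-/- library, each of them 1 library. In cluster 10 it was 8193, 5993 and 9663 CPM in the same order, highest in the sGSN-/-Clec9a-/- library.

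Of 23 countable immediate early genes 0 were called, near the shares over all countable genes, and 14 of the 23 medians were below 0, with a list median of -0.02 and summed levels of 17615 CPM in WT and 16166 CPM in sGSN-/-. Likewise, of 19 countable genes of the unfolded protein response 0 were called, with a median of 0.04. The 7 nuclear and RNA quality transcripts, none called, had a median of 0.009.

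The promoters of the heat shock genes are shown because 7 of these genes were called lower and many of the list share a known element, bound by heat shock factors and built from alternating GAA and TTC units. Promoters of 300 bases from RefSeq (GRCm38.p6), from 250 bases before to 50 after the start, were found for 20 of the 24 genes. The element was searched as GAANNTTC, which reads the same on both strands, and 12 of the 20 genes (60.0%) held it in at least 1 promoter, against 9.04% of all 27025 genes and 7.86% of all 32851 promoter sequences. Of the 7 consistently lower genes 6 held it, the near-identical promoters of *Hspa1a* and *Hspa1b* counted as 2. With TTCNNGAA, also the same on both strands and overlapping the first in longer runs, added as a second form, 13 of 20 genes (65.0%) and 16.97% of all genes had a match. The form with 3 units, GAANNTTC followed directly by NNGAA or TTCNNGAA followed by NNTTC, was in 5 of 20 genes (25%), *Hspd1* and *Hspe1* with overlapping promoters counted as 2 here and above, in 2 of the 7 lower genes (28.6%) and in 0.662% of all genes. It was the first form searched, and the shorter ones were added after it had given no match in *Hspa1a* and *Hspa1b*. A match is a description of the letters only. Capitals mark GAANNTTC or TTCNNGAA. The promoters of *Hspa1a* (chr17:34972107-34972406, minus strand) and *Hspa1b* (chr17:34959189-34959488, minus strand) differed at 4 of 300 positions and held the same match at the same position, and the promoters shown for *Hsph1* (chr5:149636287-149636586, minus strand) and *Hspd1* (chr1:55087883-55088182, minus strand) each held 3 matches. A second *Hspd1* promoter (chr1:55088194-55088493, minus strand), not shown, held 0 matches.
Hspa1a: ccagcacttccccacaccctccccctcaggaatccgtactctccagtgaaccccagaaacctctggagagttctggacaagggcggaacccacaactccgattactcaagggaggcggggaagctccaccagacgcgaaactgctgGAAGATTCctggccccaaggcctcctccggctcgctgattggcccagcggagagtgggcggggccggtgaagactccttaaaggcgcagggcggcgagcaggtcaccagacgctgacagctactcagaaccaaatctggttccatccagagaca
Hspa1b: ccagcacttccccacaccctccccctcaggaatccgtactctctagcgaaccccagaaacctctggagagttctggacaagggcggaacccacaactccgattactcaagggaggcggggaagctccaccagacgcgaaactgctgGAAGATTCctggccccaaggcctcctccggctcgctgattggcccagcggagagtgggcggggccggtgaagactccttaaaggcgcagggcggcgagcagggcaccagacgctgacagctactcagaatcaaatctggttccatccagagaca
Hsph1: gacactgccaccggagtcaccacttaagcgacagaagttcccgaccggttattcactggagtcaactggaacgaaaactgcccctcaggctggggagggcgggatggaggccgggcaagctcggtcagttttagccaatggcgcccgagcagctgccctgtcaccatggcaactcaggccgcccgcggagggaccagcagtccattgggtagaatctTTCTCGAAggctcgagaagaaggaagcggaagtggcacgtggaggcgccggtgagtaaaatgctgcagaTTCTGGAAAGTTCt
Hspd1: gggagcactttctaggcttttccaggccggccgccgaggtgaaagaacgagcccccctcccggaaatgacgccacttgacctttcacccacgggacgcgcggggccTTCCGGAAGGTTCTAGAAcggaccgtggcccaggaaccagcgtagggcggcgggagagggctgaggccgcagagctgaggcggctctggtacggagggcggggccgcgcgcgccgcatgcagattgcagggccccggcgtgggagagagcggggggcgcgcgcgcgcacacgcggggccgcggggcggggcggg

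Some macrophage transcripts were lower in sGSN-/- cDC1s. *C1qa*, a complement gene of macrophages, was at 12.04 CPM in WT (10.88 to 13.29) and 4.939 CPM in sGSN-/- cDC1s (4.081 to 5.924), and at 7.508 CPM in the sGSN-/-Clec9a-/- library, with a median log2 ratio of -0.77. In cluster 8 it was at 133.7 CPM in WT, on 138 UMIs, and at 5.51 CPM in sGSN-/- cells, and 76 of the UMIs of the WT library came from 1 cell. Of the 13 macrophage or monocyte markers 4 were countable and 2, *C1qa* and *Apoe*, consistently lower, against 1.61% lower among all countable genes. By CPM 10 of the 13 were lower, among them *C1qb* at 15.4 and 7.75 CPM (median -0.87 on the log2 scale), *C1qc* at 5.88 and 2.81 CPM, *Csf1r* at 7.72 and 4.51 CPM and *Trem2* at 2.24 and 0.554 CPM. The other 3 were higher in sGSN-/- cells, with *Ly6c2* at 9.96 and 14.4 CPM (median 0.43), *Fcgr1* at 10.6 and 11.9 CPM and *Adgre1* at 2.39 and 2.43 CPM. The list summed to 105.8 CPM in WT and 69.8 CPM in sGSN-/- cDC1s and 87.8 CPM in the sGSN-/-Clec9a-/- library, with *Apoe* most abundant at 33.4, 17.3 and 22.2 CPM and no marker at 0. *Apoe* had 155 of its 1089 WT UMIs in 1 cell and was called in 10 of 13 alternatives. Outside the cDC1s the same list summed to 3256, 2364 and 2845 CPM, in the same order of libraries. The sort had gated out cells bearing CD88. The part of RNA from other cells in these values was not tested.

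Sums over the markers of other cell types were similar or low in WT and sGSN-/- cDC1s. The 8 cDC2 markers summed to 137.4 CPM in WT and 139.4 CPM in sGSN-/- cDC1s, the 8 precursor markers to 160.4 and 172.0 CPM, and the 7 plasmacytoid markers to 352.7 and 392.5 CPM. The 7 B cell markers summed to 104.0 and 100.6 CPM, the 10 tumour or stroma markers to 13.6 and 9.84 CPM, and the 7 neutrophil markers to 0.429 and 0.426 CPM. For the tumour or stroma sums the log2 ratio was -0.47, with 4 of the 10 markers lower and 6 higher by CPM. The 5 erythroid markers stood out, at 7.39 CPM in WT and 0.0852 CPM in sGSN-/- cDC1s, where *Hba-a1*, *Hba-a2*, *Hbb-bs* and *Alas2* were at 0. Outside the cDC1s they were at 40.8 and 0.175 CPM, so the WT library as a whole carried more haemoglobin RNA, although the sort gated out cells bearing TER-119.

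**Figure D3:**
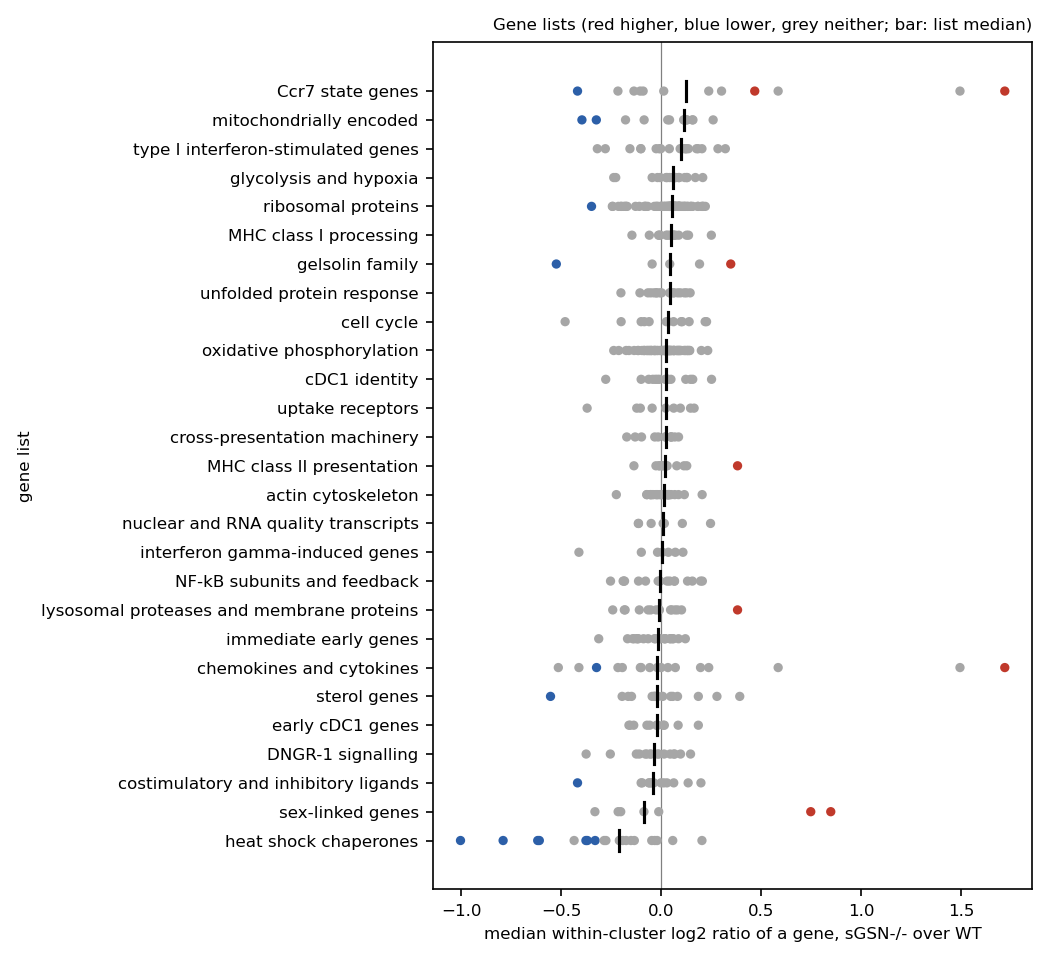
Median within-cluster log2 ratio, sGSN-/- over WT, of each countable gene (points) in 27 gene lists (rows), with the median of each list as a black bar and genes in red (consistently higher), blue (consistently lower) or grey (neither). The heat shock chaperones have the lowest list median, -0.21, and the medians of most other lists lie close to 0.

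The other lists are read against the shares of 0.858% higher and 1.61% lower over all countable genes, with which 0 calls in a list of this length is near the background and no result about it. Of the 16 countable genes of the DNGR-1 signalling list 0 were higher and 0 lower, and the median was -0.04. The kinase gene *Syk* was at 54.3 CPM in WT and 52.3 CPM in sGSN-/- cDC1s, and the oxidase subunit gene *Cyba* at 922.1 and 963.9 CPM. *Btk*, a kinase gene, had the largest absolute median of the list, -0.38, at 71.9 and 58.9 CPM, with 9 of 11 clusters lower and 2 against, and its median was 0.04 in Y-typed cells. The 12 countable genes of the cross-presentation machinery had 0 calls and a median of 0.02. The 9 uptake receptor genes had 0 calls and a median of 0.02 as well.

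Genes of the antigen presentation machinery also differed little. Of 13 genes of MHC class II presentation 1 was higher, with a list median of 0.02. That gene, *Lgmn*, encodes a lysosomal protease, was at 28.7 and 41.5 CPM, and had a median log2 ratio of 0.38, called in 8 of 14 alternatives. In the sum outside the cDC1s it was at 177.1 and 126.7 CPM, in the other direction, and in NK barcodes at 39.4 and 24.2 CPM. The part of the cell mix in the outside values was not tested. The list of 15 lysosomal proteases and membrane proteins, which includes *Lgmn* too, had no other call and a median of -0.01. The 16 genes of MHC class I processing had 0 calls and a median of 0.05.

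The family of the targeted gene and the actin cytoskeleton were next examined. Of the 5 countable gelsolin family genes *Capg*, a capping protein gene, was lower at 8.89 and 5.92 CPM with a median log2 ratio of -0.53, called in 8 of 9 alternatives. *Vill*, a villin-like gene, was higher at 9.78 and 10.7 CPM with a median of 0.35, and was called in 5 of 12 alternatives. The other 3, *Gsn*, *Flii* and *Svil*, were neither. Of the 28 countable actin cytoskeleton genes 0 were called, and the median was 0.01. Within 5 Mb of *Gsn* on chromosome 2, a window set after the files were seen, 62 genes were countable, 0 were higher and 3, *Abl1*, *Stom* and *Rpl35*, were lower, or 4.84% against 1.61% of all countable genes, with a median of 0.01. The higher gene *Zdhhc12*, at chr2:30090944-30093648, lay just outside this window, which began at position 30256380.

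Calls in the interferon and inflammatory lists were likewise near the shares over all countable genes. The 20 countable type I interferon-stimulated genes had 0 calls and a median of 0.10. This list's median differed between clusters, from -0.21 in cluster 5 to 0.58 in cluster 9, where 13 genes were above 0 and 3 below. The 7 countable interferon gamma-induced genes had 0 calls and a median of 0.005, and the 17 NF-kB genes 0 calls and a median of -0.007. Of 17 countable chemokine and cytokine genes, *Ccl5* was higher and *Ccl6*, at 63.7 and 48.6 CPM, lower, and the median was -0.02. *Il1b*, the most abundant cytokine gene of that list, was at 2275 CPM in WT and 2168 CPM in sGSN-/- cDC1s, with a median of -0.06. Of 14 costimulatory and inhibitory ligands only *Tnfsf9*, at 26.9 and 20.5 CPM, was called, lower and in 8 of 13 alternatives, and the median was -0.04.

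Genes of the *Ccr7* state, the programme of migratory activated cDC1s, went different ways in different clusters. Of 12 countable genes 2, *Ccl5* and *Plet1*, were higher and 1, *Marcksl1*, lower, and the list median was 0.12. Over all clusters *Plet1* was at 64.8 and 100.4 CPM and *Marcksl1* at 113.5 and 94.7 CPM, with median log2 ratios within clusters of 0.47 and -0.42. These levels also move with the spread of cells over clusters, since cluster 8 held 84 of the 2297 WT and 114 of the 1683 sGSN-/- cells, and the ratio of sums was 0.63 for *Plet1* and -0.26 for *Marcksl1*. In cluster 8, the cluster with the highest summed level, the list summed to 19418 CPM in WT and 18171 CPM in sGSN-/- cells with a median of -0.15. In cluster 10 the summed level was 2969 and 1224 CPM, the median was -1.30, and all 6 countable genes were lower. The list's median changed sign between alternatives, from -0.18 in Y-typed cells to 0.38 for sums over all clusters. No direction was therefore shared by the clusters.

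The chemokine genes *Ccl17* and *Cxcl9* illustrate this dependence on the cluster. *Ccl17* was higher in 5 and lower in 2 of 7 countable clusters. It rose from 2.79 to 29.7 CPM in cluster 1 and from 499.9 to 606.9 CPM in cluster 8, and it fell from 1201 to 493.0 CPM in cluster 10. The 1% of cells with most *Ccl17* held 79.0% of its UMIs in WT and 75.9% in sGSN-/- cDC1s, so few cells set these values. *Cxcl9* was higher in 6 and lower in 5 of 11 clusters. In cluster 10, where *Cxcl9* was most abundant, it was at 4745 and 4982 CPM, in cluster 9 at 226.6 and 538.9 CPM, and in cluster 8 at 561.9 and 376.3 CPM. The median log2 ratio was 1.49 for *Ccl17*, which lay between 0.43 and 2.01 over 11 alternatives, and 0.07 for *Cxcl9*, and neither gene was called.

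The remaining lists had medians near 0. The 16 cDC1 identity genes had 0 calls and a median of 0.02, and the 11 countable early cDC1 genes 0 calls and a median of -0.02. The 77 oxidative phosphorylation genes had 0 calls and a median of 0.02, the 19 glycolysis and hypoxia genes 0 and 0.06, and the 13 cell cycle genes 0 and 0.03. The 79 ribosomal protein genes had a median of 0.05. Of the 13 mitochondrially encoded genes *mt-Atp8*, at 250.7 and 194.6 CPM, and *mt-Nd4l*, at 396.8 and 324.6 CPM, were lower while the list median was 0.11. These genes were called in 14 and 5 of 16 alternatives and overlap *mt-Atp6* and *mt-Nd4*, respectively. Outside the cDC1s they were lower too, at 307.5 and 245.8 CPM and at 490.7 and 417.4 CPM. Of 16 sterol genes only *Apoe* was called, and the median was -0.02. The 7 countable sex-linked genes had a median of -0.09, with *Ddx3y* and *Eif2s3y* higher and 0 lower.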

How the data were processed

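Droplet scRNAseq was measured in sorted tumour dendritic cells of 1 library per genotype. Counts deposited by the authors are raw UMIs of each gene in each barcode, made with Cell Ranger on the mm10 reference without normalisation. The deposited table of cDC1s gives the library, cluster and UMI count of each cell and was made with Seurat (version 4.0.0 per the labels, while the methods give 4.0.0 for R and an earlier Seurat version) after integration and removal of dying cells. From the deposited counts, sums per library and cluster, CPM and log2 ratios were computed here with Python 3.11.15, numpy 2.4.6, pandas 2.3.3 and scipy 1.17.1, and the computation was tested on simulated data. A level of 0 UMIs was set to 3 for a ratio. Doublets were kept, and in an alternative the 6% of barcodes of each library with the highest Scrublet score (scanpy 1.11.5) were left out.

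Genes were named by a rule: the 12 consistently higher genes with the largest and the 12 consistently lower genes with the smallest median ratio, *Gsn*, *Clec9a*, *Xist* and 4 Y-linked genes, and of each list the 2 countable genes with the largest absolute median and the 2 with most UMIs. A gene named by this rule is not reported here. *Hsph1*, *Dnajb1*, *Dnaja1*, *Hspd1*, *Bag3*, *Plet1*, *Marcksl1*, *Ccl6*, *Syk*, *Svil*, *Abl1*, *Stom*, *Gm47283*, *Hspa2*, *Hspa4*, *Hsf1* and *Dnajb6* and the NK, T cell and macrophage markers given with values were named after their values were seen, where the rule had not named them. Members and lists were chosen with earlier results of these data known, and the promoter motifs, the window around *Gsn* and the limit on transcript length were chosen after the values were seen. Gene positions are those of GENCODE M21 (GRCm38).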

Additional observations from a re-analysis of the deposited data

How the results depend on the processing

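Over 16 alternatives, 1349 of 1772 values of named genes moved by no more than the counting error of the gene, 421 moved by more and 2 called values reversed. These were *Eif2s3y* at -0.068 and *Ddx3y* at -0.139 in cells with Y-linked UMIs only, which are chosen by these genes. Among genes that were not called, 74 values of 33 genes changed sign, among them *Btk* at 0.04 in Y-typed cells and *Cxcl10* at 0.28 for sums over clusters. Of 432 list medians 430 moved by less than the spread of their genes. The higher and lower counts, 65 and 122, became 127 and 164 with a minimum of 10 UMIs and 11 and 35 with a minimum of 100. Cells thinned to 3900 UMIs gave 47 and 68, Y-typed cells 68 and 56, and a threshold of 1.5-fold 13 and 25. Requiring every countable cluster to go the same way gave 21 and 44, and sums over clusters, with no regard to cluster, 137 and 200. Stricter rules lower a count by construction, and for the others the cause was not tested. In the other alternatives the higher count lay between 49 and 97 and the lower between 104 and 141.

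Leaving out 320 WT and 667 sGSN-/- cells with NK transcripts, an alternative chosen after seeing the data, gave 63 and 114, of which 20 and 54 were among the original calls. In Y-typed cells 0 and 13 of the original calls were made again, in cells typed by *Xist* 10 and 53, and in thinned cells 1 and 20. Doublet scores removed 36 WT and 17 sGSN-/- cells. Genes under 30 UMIs per cluster could not be compared, and cluster 10, with 21 and 27 cells, limits what its values show. No paired analysis was possible because each genotype is 1 library from its own pool of mice.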
